A study of Homo sapiens with 6 samples.

Results

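The genes described here encode the subunits of the proteasome and the factors that build, open and hold it, in ACHN cells. ACHN is an established line from a human kidney carcinoma, which the labels describe as clear cell. The members were chosen by gene symbol from the deposited table of raw counts: the PSMA, PSMB, PSMC, PSMD, PSME, PSMF and PSMG genes with a plain number, with POMP and ADRM1, which gave 50 of 58735 genes. The family was proposed with the comparison of curcumol and control already known, so its fold changes and calls are given as a description and support nothing by themselves. Curcumol, a sesquiterpenoid from Curcuma rhizomes, had been given to wild-type ACHN cells in 3 libraries, and 3 libraries came from untreated or vehicle-treated wild-type ACHN cells grown under the same conditions. The treatment label calls the control a vehicle control and the design text says that it received no drug, so which of these it was cannot be told. Neither dose nor time is given in the sources used here. Libraries of a group are labelled as independent biological replicates, all of 1 cell line, and poly(A)-selected RNA was sequenced in pairs of reads.

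The proteasome is the protease that degrades most ubiquitin-tagged proteins. Its barrel, the 20S core, is built of rings of alpha subunits, which gate the entrance, and rings of beta subunits, of which PSMB5, PSMB6 and PSMB7 carry the chymotrypsin-like, caspase-like and trypsin-like activity. The 19S regulatory particle caps the barrel to form the 26S proteasome: its ATPases unfold substrates, and its other subunits bind and remove ubiquitin. Cells exposed to interferon replace the 3 catalytic subunits with PSMB8, PSMB9 and PSMB10, the immunoproteasome, which changes the peptides offered to T cells. When proteasomes are inhibited, the transcription factor NRF1 (gene NFE2L1) is processed and raises subunit genes together.

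The libraries held 16962012 to 17827433 counts each, and log2 CPM correlated at 0.9883 to 0.9918 between libraries of a group. Scaling factors (TMM) were 0.9003 to 0.9195 in curcumol and 1.089 to 1.103 in control, so the scaling itself differed between the groups. Of 15160 genes tested, 5967 (39.4%) were higher and 6109 (40.3%) lower in curcumol, and in 81% the groups did not overlap. The labelled cell type was checked on 9 markers of renal epithelial tumour cells, with VIM and CDH2 among them. They summed to 3558 to 4040 CPM in curcumol and 5277 to 5649 CPM in control, and 8 of the 9 fell. CDH1, which did not pass, had only 1.15 to 1.33 CPM in curcumol and 1.56 to 2.22 CPM in control. Markers of leukocytes summed to at most 1.0 CPM and those of endothelium to at most 0.568 CPM in any library, with CD3E at 0 in all. The 4 fibroblast markers summed to 18.8 to 24.2 CPM in curcumol and 9.81 to 11.6 CPM in control, with ACTA2 and PDGFRB the ones that rose. LUM had 0, 22 and 0 counts in curcumol and 0, 0 and 0 in control. DCN had 0, 11 and 0 counts in curcumol and 0, 1 and 2 in control. Among the curcumol libraries, both were thus counted in replicate 2 only. The part of the fall in renal markers in the results below was not tested.

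Most of the 26S proteasome was higher in curcumol, while the immunoproteasome and most of the dedicated chaperones of the core were lower. Of the 50 members 48 had enough counts to be tested. Curcumol was higher for 35 of them and lower for 9, against 79.7% of all genes called in either direction, and 4 did not pass the threshold (edgeR's quasi-likelihood test, Benjamini-Hochberg adjusted p of 0.05 over all genes). The groups did not overlap for 46 of the 48, beside 81% of all genes. The median log2 fold change of the members was 0.94, beside -0.017 for all genes tested. Split by role, 31 of 32 tested genes of 26S subunits rose and 0 fell, leaving out the base chaperones PSMD5, PSMD9 and PSMD10, while 0 of 3 immunoproteasome genes and 1 of 5 assembly chaperone genes rose. Together the members took 1.17%, 1.13% and 1.15% of all counts in the curcumol libraries, against 0.738%, 0.738% and 0.724% in the control libraries. In bulk RNA, fewer cells of a type and less RNA per cell cannot be told apart, and RNA does not give the amount of assembled proteasome.

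**Figure D1:**
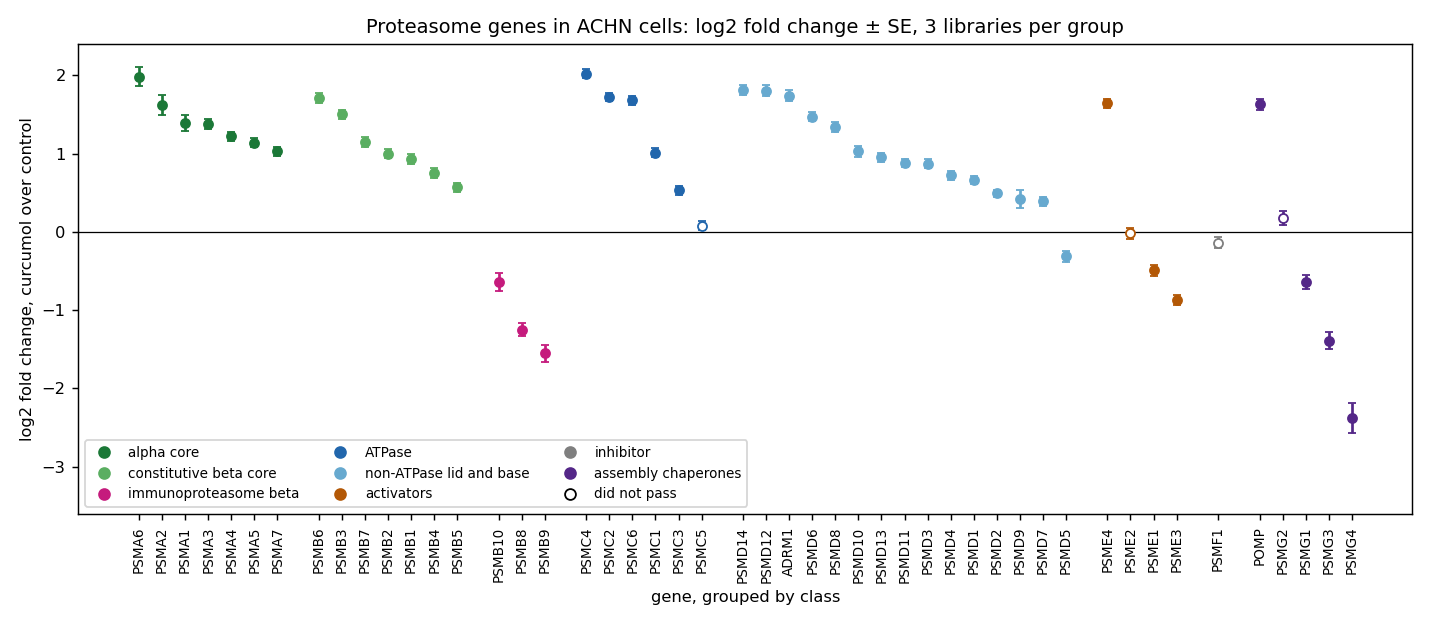
Log2 fold change (curcumol over control) of the 48 tested proteasome genes, grouped by class on the horizontal axis; bars are the standard error of the fit over 3 libraries per group, and open points did not pass the adjusted threshold of 0.05. All 14 tested genes of the constitutive core lie above 0 and the 3 immunoproteasome genes lie below 0, with PSMC4 at 2.02 and PSMG4 at -2.38 as the ends of the range.

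Among the 48 members, log2 fold change and GC content of the longest annotated transcript had a Spearman correlation of -0.38, beside -0.34 over 15154 genes. These correlations only describe genes that share the same libraries. With an offset for GC content 36 members rose and 9 fell, with PSMB10 losing its call and PSMG2 and PSMF1 gaining one. Of the 44 called members, 15 moved by over 1.5 times on the log2 scale. Among the genes that rose, the offset gave smaller changes for PSMD14 (1.01), POMP (0.92), PSMD6 (0.91), PSMA3 (0.75), PSMD10 (0.63), PSMA5 (0.52), PSMB1 (0.48), PSMD1 (0.42) and PSMD7 (0.24), and larger ones for PSMC3 (0.94) and PSMD2 (0.80). Among those that fell it gave -0.85 for PSMG3, -0.73 for PSMD5, -0.25 for PSME1 and -0.04 for PSMB10. The order of genes within a class therefore holds for the fit without the offset, and the main places that changed are named beside the genes. With library totals in place of TMM, which put the median of all genes at -0.282, 33 members rose and 12 fell.

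The alpha ring moved as a whole: 7 of its 7 tested genes rose, by log2 fold changes between 1.03 and 1.98, with a median of 1.38. PSMA6 (chr14:35278633-35317493, plus strand, GRCh38) had 30.7, 26.1 and 31.1 CPM in curcumol, against 7.86, 8.1 and 6.3 CPM in control. Every curcumol library was above every control library, and the log2 fold change was 1.98 ± 0.12 (SE, n = 3 per group). At the other end of the class, PSMA7 (chr20:62136735-62143440, minus strand) had 558, 484 and 473 CPM in curcumol and 259, 247 and 234 CPM in control, a log2 fold change of 1.03 ± 0.06. With the GC offset that order did not hold, PSMA7 being 1.41, PSMA6 1.40 and PSMA5 the lowest of the class at 0.52. In the fit without it, PSMA2 changed by 1.62, PSMA1 by 1.39, PSMA3 by 1.38, PSMA4, whose yeast counterpart closes the gate of the barrel with its tail, by 1.22 and PSMA5 by 1.14 on the log2 scale. PSMA8, the alpha subunit of the testis that replaces PSMA7 in developing sperm, had 0 counts in all 6 libraries and was not tested.

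The 7 constitutive beta genes rose as well, with a wider range than the alpha genes and a median of 1.0. Among them were all 3 catalytic genes, and these did not rise equally. PSMB6 (chr17:4796144-4798503, plus strand) had 482, 417 and 426 CPM in curcumol and 135, 139 and 131 CPM in control, a log2 fold change of 1.71 ± 0.06. PSMB7 (chr9:124353466-124415444, minus strand) had 528, 471 and 487 CPM in curcumol and 219, 233 and 218 CPM in control, a log2 fold change of 1.15 ± 0.06. PSMB5, the gene of the subunit that bortezomib and carfilzomib bind (chr14:23016543-23035230, minus strand), had 220, 203 and 189 CPM in curcumol and 140, 139 and 132 CPM in control, the smallest change of the class at 0.57 ± 0.06. With the GC offset it was 0.75, and PSMB1 (0.48), PSMB2 (0.73) and PSMB4 (0.73) were lower. None of the 3 catalytic genes had a library that overlapped with the other group. Within a library, PSMB6 held 219%, 205% and 225% as many counts as PSMB5 in curcumol, against 95.9%, 101% and 98.9% in control, a comparison that no scaling between libraries can move. Among the non-catalytic beta genes PSMB3 changed by 1.5, PSMB2 by 1.0, PSMB1 by 0.93 and PSMB4 by 0.75 on the log2 scale.

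Levels between genes were compared per kb of the longest principal transcript of GENCODE 29, since longer transcripts give more counts. On that scale the 14 expressed core genes had a median of 195 CPM per kb in curcumol and 97.5 CPM per kb in control, with PSMB6 the highest in curcumol (519) and PSMB4 the highest in control (300). PSMA1, PSMA2 and PSMA6 were the lowest alpha genes, at 37.4, 12.7 and 28.5 CPM per kb in curcumol and 14.3, 4.12 and 7.21 CPM per kb in control, although the subunits occur in equal copies in the assembled core. These 3 genes share 53.2%, 54.1% and 81.0% of that transcript's bases with other annotated genes, in each case with a protein-coding readthrough gene on the same strand. How the authors' counting treated reads in such shared exons is not given in the sources used here, so the low levels of these 3 genes are uncertain, and the part of the overlap in their fold changes was not tested. Of the readthrough genes, AC010132.3, which runs through PSMA2, had 69, 130 and 101 counts in curcumol and 0, 0 and 0 counts in control. Without these 3 genes, singled out after their values were seen, the medians of the core were 262 CPM per kb in curcumol and 137 CPM per kb in control. Levels per kb also depend on which transcript is taken: those of PSMA4 and PSMC1 rest on annotated transcripts of 4411 and 4448 bases, and which transcripts the cells use was not tested.

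**Figure D2:**
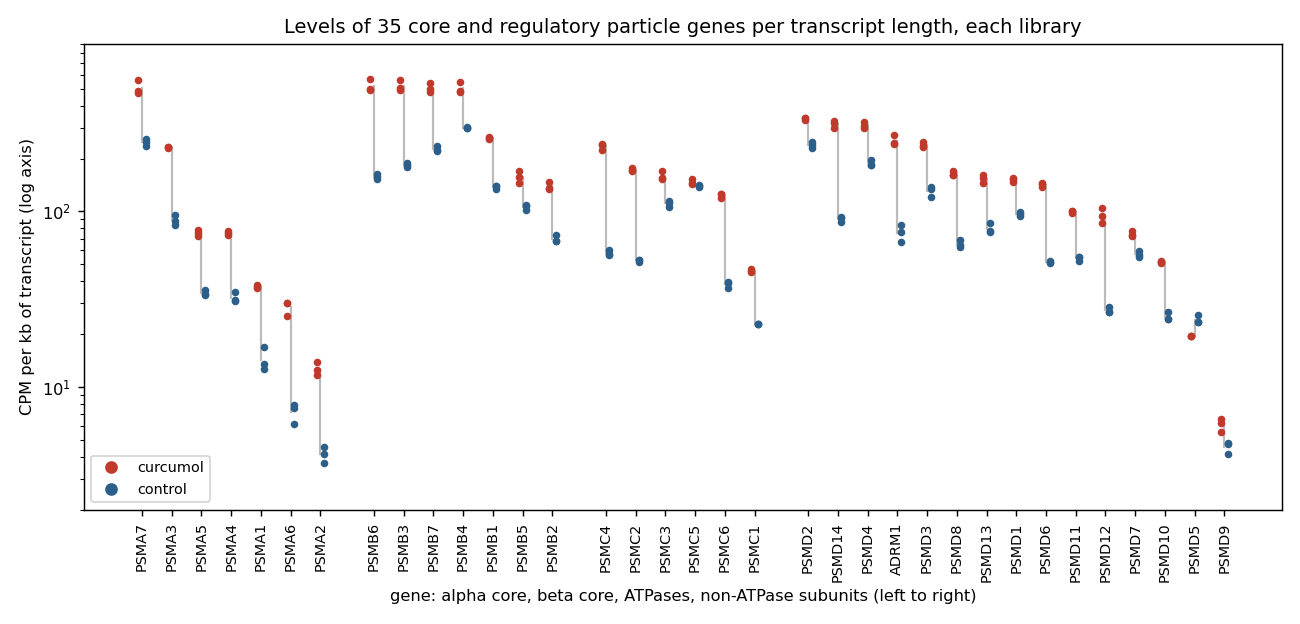
CPM per kb of the longest principal transcript (log axis) for the 35 tested genes of the core and regulatory particle, base chaperones included, with 3 curcumol libraries and 3 control libraries as points and a grey line between the group means; classes run from the alpha core on the left to the non-ATPase subunits on the right. The base chaperone PSMD5 is the only one of the 35 with its curcumol libraries below its control libraries, and PSMC5 shows the smallest gap.

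In the ATPase ring of the 19S base, which threads substrates into the barrel, 5 of 6 genes rose. PSMC4 (chr19:39971005-39981441, plus strand) had 385, 357 and 382 CPM in curcumol and 90.3, 96.0 and 91.2 CPM in control. Its log2 fold change of 2.02 ± 0.06, a 4.05-fold difference, was the largest rise among the 48 members without the GC offset; with it ADRM1 was higher, 2.49 against 2.36 for PSMC4. PSMC2 changed by 1.72, PSMC6 by 1.68, PSMC1 by 1.01 and PSMC3 by 0.53 on the log2 scale. PSMC5 (chr17:63827152-63832026, plus strand) was the exception, with 241, 230 and 226 CPM in curcumol and 219, 223 and 216 CPM in control. Its libraries did not overlap, but the log2 fold change of 0.08 ± 0.06 did not pass (edgeR adjusted p = 0.164), and with library totals in place of TMM it was -0.18 and passed (edgeR adjusted p = 0.00385). Of the principal transcript of PSMC1, 82.2% lies over exons of NRDE2 on the opposite strand, and the use of strand in the counting is not given in the sources used here, so its counts may hold reads of NRDE2.

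The non-ATPase subunits of the lid and base recognise ubiquitin chains and cut them off, and 12 of 12 such genes rose, with a median log2 fold change of 0.92, the 3 base chaperones with PSMD symbols left aside. PSMD14, the metalloprotease that removes ubiquitin chains (chr2:161308038-161411717, plus strand), had 621, 587 and 644 CPM in curcumol and 182, 169 and 179 CPM in control, a log2 fold change of 1.81 ± 0.06. Of the ubiquitin receptors, ADRM1 (chr20:62302093-62308862, plus strand) had 417, 376 and 369 CPM in curcumol and 129, 117 and 103 CPM in control, a log2 fold change of 1.74 ± 0.07. PSMD4, another intrinsic receptor (chr1:151254703-151267479, plus strand), had 438, 415 and 405 CPM in curcumol and 265, 250 and 250 CPM in control. Its change was smaller, at 0.72 ± 0.06. For all 3 of these genes each curcumol library was above each control library. The scaffold gene PSMD2 had the highest level of the 19S genes per kb, 338 CPM per kb in curcumol and 240 CPM per kb in control, and a log2 fold change of 0.49. PSMD12 changed by 1.80, PSMD6 by 1.47 and PSMD8 by 1.34 on the log2 scale. The other risen structural genes, PSMD1, PSMD3, PSMD7, PSMD11 and PSMD13, changed by 0.39 to 0.95. With the GC offset this order did not hold. PSMD14 was then 1.01, below ADRM1 (2.49), PSMD8 (1.69), PSMD12 (1.21) and PSMD3 (1.08), and PSMD6 was 0.91.

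Some PSMD symbols belong to chaperones that hold the ATPases while the base is assembled and then leave, and these moved in different directions. PSMD5 (chr9:120815496-120842984, minus strand) had 66.9, 66.8 and 66.8 CPM in curcumol and 80.2, 88.6 and 80.1 CPM in control. All curcumol libraries lay below all control libraries, and the log2 fold change was -0.31 ± 0.07; tested against a 1.2-fold change it did not pass (edgeR adjusted p = 0.127). PSMD9, another base chaperone, changed by 0.42 ± 0.12 and PSMD10, also known as gankyrin, by 1.03 ± 0.07. The base chaperone PAAF1, which carries no PSM symbol, had 16.0, 17.8 and 17.7 CPM in curcumol and 18.5, 18.9 and 17 CPM in control, and did not pass (log2 fold change -0.08, edgeR adjusted p = 0.505). PSMD9 shares exons with AC069503.2 and WDR66 on the same strand. Of its principal transcript, 43.8% lies over exons of other annotated genes. With library totals the log2 fold change of PSMD9 was 0.16 and did not pass (edgeR adjusted p = 0.212), as for PSMD7 (0.12, edgeR adjusted p = 0.0882). Of the principal transcript of PSMD7, 50.4% lies over exons of AC009120.2 on the opposite strand.

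The immunoproteasome genes went the other way, and 3 of 3 were lower in curcumol. PSMB8, the counterpart of PSMB5 (chr6:32840717-32844703, minus strand, in the MHC class II region), had 30, 26.9 and 27.9 CPM in curcumol and 71.1, 69.0 and 61.7 CPM in control, a log2 fold change of -1.25 ± 0.08. PSMB9, the counterpart of PSMB6 (chr6:32844136-32859585, plus strand), had 14.7, 12.2 and 11.8 CPM in curcumol and 40.4, 38.3 and 34.6 CPM in control, a log2 fold change of -1.55 ± 0.11. PSMB10, the counterpart of PSMB7 (chr16:67934502-67937087, minus strand), had 10.8, 10.6 and 9.09 CPM in curcumol and 15.3, 15.4 and 16.9 CPM in control, a log2 fold change of -0.64 ± 0.12. For each gene all curcumol libraries were below all control libraries. For PSMB10, a fit with an offset for GC content gave -0.04 and did not pass (edgeR adjusted p = 0.767), and 45.3% of its principal transcript lies over exons of AC040162.1 on the same strand. PSMB11, the beta subunit of the thymic cortex, had 2, 0 and 3 counts in curcumol and 0, 0 and 0 counts in control and was not tested.

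**Figure D3:**
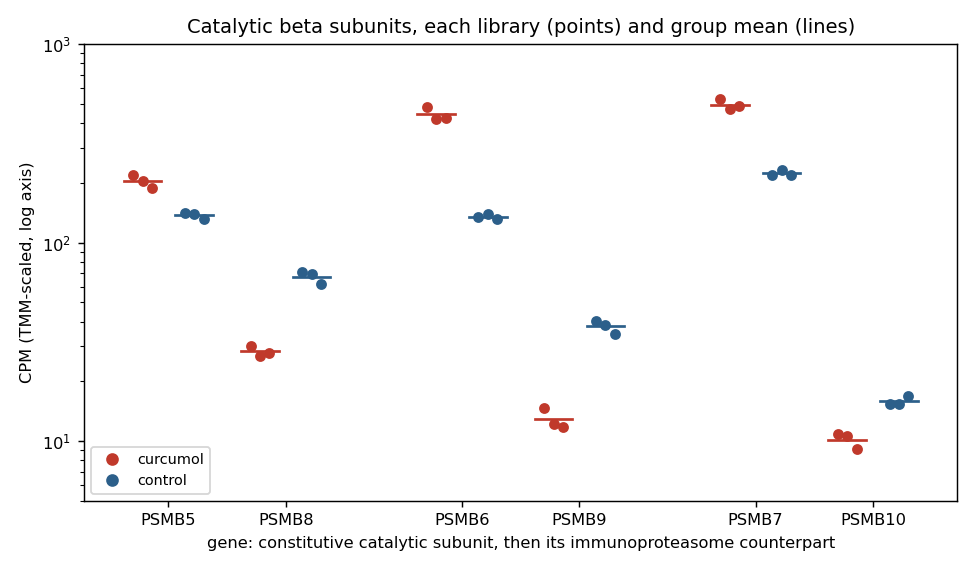
CPM (log axis) of the 3 catalytic genes of the constitutive core, each followed by its immunoproteasome counterpart; points are libraries, short lines group means, with curcumol left of control. The curcumol points lie above control for PSMB5, PSMB6 and PSMB7 and below control for PSMB8, PSMB9 and PSMB10, with no overlap in any of the 6 genes.

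Set against its constitutive counterpart within the same library, each immunoproteasome gene was scarcer in curcumol. PSMB8 had 13.6%, 13.3% and 14.7% of the counts of PSMB5 in curcumol and 50.6%, 49.8% and 46.7% in control. PSMB9 had 3.04%, 2.92% and 2.77% of the counts of PSMB6 in curcumol and 30%, 27.4% and 26.4% in control, the widest gap of the 3 pairs at 9.6-fold. PSMB10 had 2.05%, 2.25% and 1.87% of the counts of PSMB7 in curcumol and 6.99%, 6.63% and 7.74% in control. In no pair did the groups overlap, and these ratios do not depend on scaling between libraries, though a ratio of counts is not a ratio of molecules because the transcripts differ in length. In the fit without the GC offset both sides moved in each pair, so the ratios changed by more than either gene alone. With the offset PSMB10 was -0.04 and did not pass (edgeR adjusted p = 0.767), and the count ratios carry no such offset. The immunoproteasome genes as a class held 0.406% ± 0.0189 of all proteasome counts in curcumol and 1.80% ± 0.08 in control (SD, n = 3 each).

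**Figure D4:**
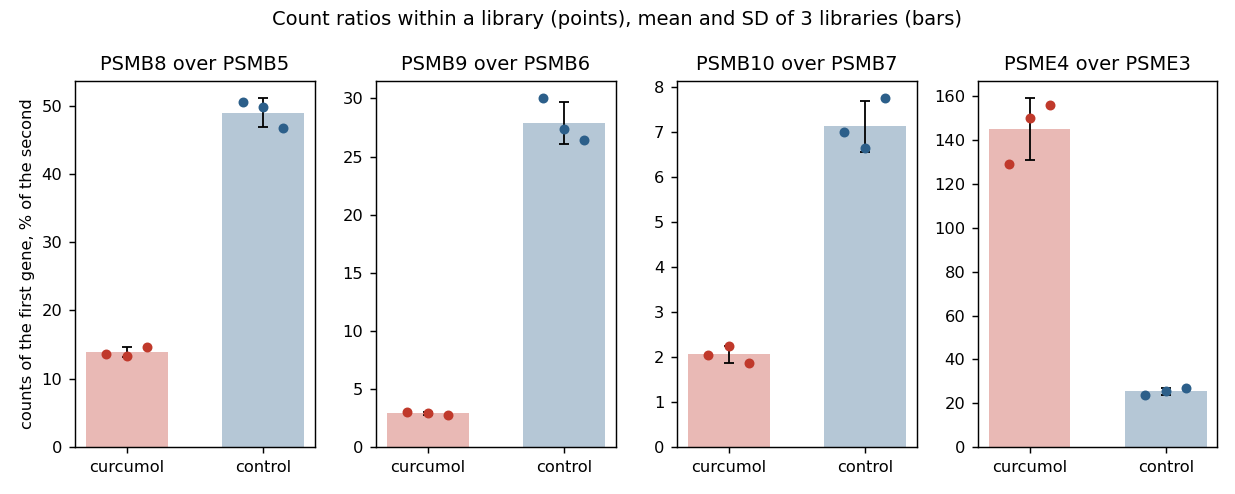
Counts of the first gene as a percentage of the counts of the second within each library (points), with the mean as a bar and the SD of 3 libraries as a line; the vertical axes start at 0 and differ between panels. The 3 immunoproteasome ratios are lower in curcumol, for example 13.9% in curcumol against 49.0% in control for PSMB8 over PSMB5, and the ratio of the activators PSME4 over PSME3 is higher, 145% in curcumol against 25.5% in control.

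The neighbours of the immunoproteasome in antigen presentation were read from a list of 10 genes. Of these 3 rose, 5 fell and 2 did not pass, so that 80% were called, near the 79.7% of all genes, with a median log2 fold change of -0.31, beside -0.017 for all genes. TAP1, a subunit of the peptide transporter (chr6:32845209-32853978, minus strand), lies within the span of PSMB9 on the opposite strand and starts close to the first exon of the principal transcript of PSMB9. It had 64.8, 61.7 and 57.5 CPM in curcumol and 45.7, 42.6 and 41.6 CPM in control, a log2 fold change of 0.50 ± 0.08, while PSMB9 beside it was lower in curcumol. PSMB8-AS1, which overlaps PSMB8 on the opposite strand, had 6, 12 and 9 counts in curcumol and 7, 14 and 13 counts in control, beside 429 to 469 counts of PSMB8 in curcumol and 1195 to 1338 in control. IRF1, an interferon-induced activator of these genes, had 28.6, 26.8 and 27.8 CPM in curcumol and 23.3, 27.5 and 23.1 CPM in control, groups that overlapped (log2 fold change 0.17, edgeR adjusted p = 0.109). Named after their values were seen, NLRC5, a transactivator of MHC class I genes, changed by -3.28, while B2M, the light chain of MHC class I, changed by 1.11 on the log2 scale.

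The activators, which can cap the barrel in place of the 19S particle, split in both directions. PSME4, which encodes PA200 (chr2:53864067-53970840, minus strand), had 265, 291 and 293 CPM in curcumol and 85.4, 95.4 and 92.0 CPM in control, a log2 fold change of 1.64 ± 0.06. PSME3, which encodes the nuclear PA28 gamma ring (chr17:42824385-42843758, plus strand), had 205, 194 and 188 CPM in curcumol and 357, 377 and 339 CPM in control, a log2 fold change of -0.87 ± 0.06. Neither gene had overlapping groups, and PSME4 had 129%, 150% and 156% of the counts of PSME3 in curcumol and 23.9%, 25.3% and 27.1% in control. Per kb of the principal transcript PSME4 stayed below PSME3 in both groups, at 39.8 against 196 CPM per kb in curcumol and 12.8 against 358 CPM per kb in control. That transcript has 998 bases for PSME3, whose annotated exons together cover 5152 bases, so this order may depend on the transcript taken. The interferon-inducible PA28 alpha and beta, which form 1 ring together, gave different calls. PSME1 fell by 0.49 ± 0.07 on the log2 scale, with 76.5, 71.8 and 70.2 CPM in curcumol against 101, 104 and 101 CPM in control. PSME2 had 84.0, 84.2 and 78.4 CPM in curcumol and 86.3, 79.1 and 85.6 CPM in control, overlapping groups with a log2 fold change of -0.02 ± 0.07 (edgeR adjusted p = 0.745). The counts of PSME1 were 91.0%, 85.3% and 89.5% of those of PSME2 in curcumol and 117%, 132% and 119% in control. Per kb of transcript PSME1 was above PSME2 in both groups, at 72.4 against 58.6 CPM per kb in curcumol and 102 against 59.6 CPM per kb in control. The inhibitor PSMF1, known as PI31, had 127, 112 and 112 CPM in curcumol and 132, 132 and 123 CPM in control, and its log2 fold change of -0.14 ± 0.07 did not pass (edgeR adjusted p = 0.061).

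The chaperones that build the core did not all move with the core. POMP, which guides the beta ring into place and is degraded as the core matures (chr13:28659104-28678925, plus strand), had 337, 321 and 341 CPM in curcumol and 109, 95.9 and 117 CPM in control, a log2 fold change of 1.63 ± 0.07. The PAC chaperones that order the alpha ring, in contrast, were lower or did not pass. PSMG4, which encodes PAC4 (chr6:3231403-3303373, plus strand), had 2.05, 1.63 and 1.96 CPM in curcumol and 8.77, 9.96 and 10.6 CPM in control, on 32, 26 and 31 counts in curcumol and 163, 193 and 206 counts in control. Its log2 fold change of -2.38 ± 0.19 was the largest fall of the 48 members, and that of its partner PSMG3 was -1.39 ± 0.11. PSMG1, the gene of PAC1, changed by -0.64 ± 0.09, with 22.2, 22.7 and 24.5 CPM in curcumol and 36.9, 36.3 and 34.7 CPM in control. Its partner PSMG2 had 35.2, 35 and 33 CPM in curcumol and 30.1, 28.1 and 32.7 CPM in control, and its log2 fold change of 0.18 ± 0.09 did not pass (edgeR adjusted p = 0.0615). The 4 PAC genes lay between 1.63 and 35.2 CPM in every curcumol library, while POMP did not drop below 321 CPM in any of them. Because POMP rose, the chaperones as a class kept about the same share of all proteasome counts, 3.2% ± 0.0745 in curcumol and 3.24% ± 0.21 in control.

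**Figure D5:**
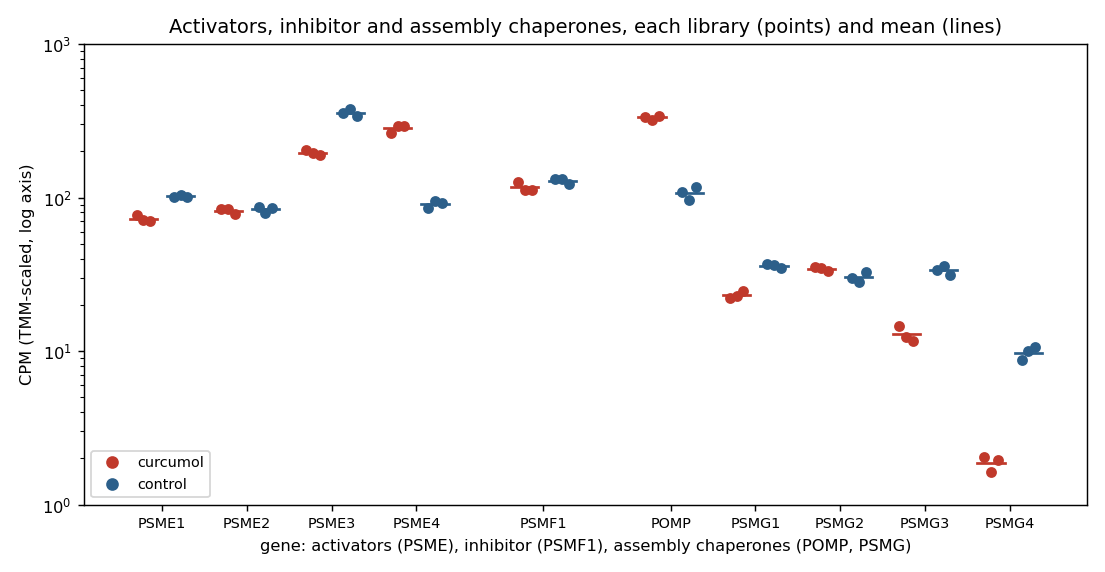
CPM (log axis) of the 4 activator genes, the inhibitor PSMF1 and the 5 chaperone genes of the core; points are libraries, short lines group means, with curcumol left of control. POMP and PSME4 are higher in curcumol, PSME1, PSME3, PSMG1, PSMG3 and PSMG4 are lower, and the points of PSME2 and PSMF1 overlap.

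The share of proteasome counts moved between the classes. The alpha core held 11.4% ± 0.221 of them in curcumol and 9.53% ± 0.217 in control, and the constitutive beta core held 20.9% ± 0.738 in curcumol and 18.5% ± 0.272 in control (SD, n = 3 each). The ATPases held 14.7% ± 0.103 in curcumol and 12.4% ± 0.131 in control. The activators held 5.01% ± 0.16 in curcumol and 9.47% ± 0.159 in control, and the lid and base 43.4% ± 0.77 in curcumol and 43.1% ± 0.396 in control. For the alpha core, the constitutive beta core, the ATPases and the activators the groups did not overlap in any library. Per transcript length the lid and base held 31.8% ± 0.693 in curcumol and 29.7% ± 0.313 in control, without overlap, so its near-equal share is one of counts only. Shares add up to a whole, so a class that rose less than the others loses share even where its genes rose.

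Genes outside the family that serve the proteasome were read from a list of 21. Of these 9 rose, 7 fell and 5 did not pass, so that 76.2% were called, near the 79.7% of all genes, with a median log2 fold change of 0.14, beside -0.017 for all genes. SEM1, the smallest lid subunit, whose symbol falls outside the naming rule, had 217, 209 and 206 CPM in curcumol and 64.0, 56.8 and 65.9 CPM in control, a log2 fold change of 1.76 ± 0.07. The deubiquitinases that dock on the 19S particle gave different calls. USP14 had 319, 316 and 333 CPM in curcumol and 136, 147 and 151 CPM in control, a log2 fold change of 1.16 ± 0.06. UCHL5, which is held by ADRM1, had 83.3, 94.3 and 94.5 CPM in curcumol and 93.5, 91.4 and 101 CPM in control, overlapping groups with a log2 fold change of -0.07 ± 0.07 (edgeR adjusted p = 0.359). ZFAND2A, a proteasome-binding zinc finger gene known as AIRAP, had 559, 568 and 630 CPM in curcumol and 27.7, 26.6 and 21.1 CPM in control, a log2 fold change of 4.54 ± 0.09.

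The genes that process NRF1 and the gene of NRF1 itself did not share a direction. NFE2L1 had 350, 359 and 360 CPM in curcumol and 475, 476 and 442 CPM in control, a log2 fold change of -0.38 ± 0.05, so its RNA was lower in curcumol in every library. NRF1 is controlled mainly as a protein, and its protein was not measured here. NGLY1, the deglycosylase that NRF1 needs, had 58.2, 61.2 and 61.2 CPM in curcumol and 22.6, 23.4 and 20.6 CPM in control, a log2 fold change of 1.44 ± 0.08. DDI2, the protease that cuts it, had 54.1, 54.0 and 63.8 CPM in curcumol and 51.7, 51.3 and 52.9 CPM in control, and did not pass (log2 fold change 0.14, edgeR adjusted p = 0.11). Of the genes for the import of proteasomes into the nucleus, named after their values were seen, AKIRIN2 changed by 2.18 and IPO9 by -2.07 on the log2 scale.

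Promoter windows of 250 bases before to 50 bases after a start site (RefSeq, GRCh38.p14) were matched for 44 of the 50 members, among 27305 genes with a window. The antioxidant response element, the site type that NRF1 and NRF2 share, was searched as TGACNNNGC on both strands. A match in at least 1 window of a gene was found in 8 of the 28 genes of the core and regulatory particle that rose and have a window (28.6%, base chaperones included) and in 16 of all 44 members (36.4%), against 16.1% of all genes. Of the 2051 tested genes that hold it, 42.7% rose and 39.1% fell, beside 39.4% and 40.3% of all genes tested, and these shares were not tested against each other. Members that fell (PSMB9, PSMD5, PSME1 and PSMG1) and members that did not pass (PSMC5, PSME2 and PSMG2) hold it as well. The wider form TGANNNNGC, which contains the first, was in 65.9% of members and 47.1% of all genes. The heat shock element, as GAANNTTCNNGAA on both strands, was in 0 of 44 members and 0.608% of all genes. The CCAAT box, searched as CCAAT, was in 47.7% of members and 39.7% of all genes.

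The sequences below show the antioxidant response element of 1 alpha gene, 1 beta gene and 2 regulatory particle genes among those that rose, with the matched letters in capitals, 5′ to 3′ on the strand of the gene.
ADRM1 (chr20:62302729-62302797, plus strand): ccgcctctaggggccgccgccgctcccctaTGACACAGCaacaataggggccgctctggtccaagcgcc
PSMA4 (chr15:78540630-78540698, plus strand): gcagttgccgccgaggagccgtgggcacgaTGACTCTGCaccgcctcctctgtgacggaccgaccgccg
PSMB3 (chr17:38752607-38752675, plus strand): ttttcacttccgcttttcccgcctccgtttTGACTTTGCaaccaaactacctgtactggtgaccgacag
PSMD12 (chr17:67366704-67366772, minus strand): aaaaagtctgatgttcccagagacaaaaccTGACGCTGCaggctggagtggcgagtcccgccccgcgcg
The first matched letter lies 137 bases before the start of ADRM1 used here, 126 before that of PSMA4, 104 before that of PSMB3 and 165 before that of PSMD12.

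The interferon-stimulated response element, the site type of interferon-activated factors, was searched as GAAANNGAAA on both strands. It was in 7 of 44 members (15.9%) and 4.38% of all genes. Of the 418 tested genes that hold it, 43.8% rose and 39.5% fell, beside 39.4% and 40.3% of all genes tested, shares not tested against each other. Among the 7 members are PSMA4 and PSMB4, which rose. In the other 5 the letters were the same, GAAAGCGAAA. That exact form was in 11.4% of members and in 34 of all 27305 genes (0.125%), and it was singled out after it had been seen in the PSMB10 window. Its 5 holders are PSMB8 and PSMB10, which fell, PSME1, which fell, PSME2, which did not pass, and PSMG4, which fell. The 26 tested genes with the exact form include these 5 members, so their shares are no separate evidence. Of the 26 genes, 5 rose (19.2%) and 11 fell (42.3%), beside 39.4% and 40.3% of all genes tested. These shares were not tested against each other. PSMB9 holds no match in its windows. The windows from 50 bases before to 25 bases after the start are shown with the match in capitals, on the strand of the gene; TTTCGCTTTC is the same site read from the other strand.
PSMB8 (chr6:32844023-32844097, minus strand): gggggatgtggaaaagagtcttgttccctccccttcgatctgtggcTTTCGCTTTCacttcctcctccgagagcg
PSMB10 (chr16:67936826-67936900, minus strand): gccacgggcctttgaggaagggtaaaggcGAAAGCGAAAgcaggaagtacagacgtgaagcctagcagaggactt
PSME1 (chr14:24136144-24136218, plus strand): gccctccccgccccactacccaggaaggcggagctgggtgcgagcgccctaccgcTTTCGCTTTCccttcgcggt
PSME2 (chr14:24146586-24146660, minus strand): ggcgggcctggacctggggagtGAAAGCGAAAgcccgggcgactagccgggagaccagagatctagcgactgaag
PSMG4 (chr6:3258897-3258971, plus strand): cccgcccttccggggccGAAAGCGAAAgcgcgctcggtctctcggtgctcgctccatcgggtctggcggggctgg
In all 5 windows the match begins within 33 bases of the start site, 5 bases after it in PSME1 and before it in the others.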

How the data were processed

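Poly(A)-selected RNA of 3 curcumol and 3 control libraries was analysed. The authors deposited 1 table of raw counts per Ensembl gene and library, whole numbers that were not normalized. The genome named is GRCh38 (also written hg38), per the submitters' processing notes. No aligner, counting tool, annotation or strand setting is given in the sources used here. All 58735 identifiers are those of GENCODE 29, which gave coordinates, exon overlaps, lengths and GC content.

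Samples were grouped by their labels. Genes were filtered with filterByExpr (15160 kept of 30878 with a count), scaled with TMM and tested with edgeR 4.0.16 (quasi-likelihood, robust, two-sided) under R 4.3.3. P-values were adjusted by Benjamini-Hochberg over all genes tested, with 0.05 as the threshold. The standard error was taken as |log2 fold change| over the root of the F statistic, and CPM values are TMM-scaled. Within a group, libraries differed by more than counting error (chi-square over its degrees of freedom 3.62 to 8.74), and each counted as 1 replicate; the common biological coefficient of variation was 0.0731. Depth matters for members such as PSMG4, PSMB10 and PSMD9, which rest on under 400 counts per library; for the abundant subunits, 3 libraries per group limit the precision. The code was tested on simulated counts.

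The members and lists were chosen with earlier results of these data known. In each class the tested members with the highest and the lowest fold change, the catalytic genes and their immunoproteasome counterparts, POMP, PSMD4 and ADRM1 were given in every library; of the lists, NFE2L1, DDI2, NGLY1, SEM1, USP14, UCHL5, ZFAND2A, TAP1, PSMB8-AS1 and IRF1. PAAF1, PSME1, PSME2, PSMG1, PSMG2 and other genes given beyond this rule were named after their values were seen. Alternatives were DESeq2 1.42.0, its size factors in edgeR, library totals, 2 other filters, the replicate number as a block, a GC offset (spline with 5 degrees of freedom per library), a test against a 1.2-fold change, shares per transcript length and each library left out in turn.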

Additional observations from a re-analysis of the deposited data

How the results depend on the processing

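Of the 48 tested members, 40 kept their direction and their side of the threshold in all settings, leaving out each library included. The counts of risen and fallen members were 33 to 36 and 8 to 12, and 35 and 10 with the replicate block. No pairing was used: same-numbered libraries deviated together by correlations of only 0.0238, -0.0123 and 0.0751, and the block changed the call of PSMF1 alone (-0.14, edgeR adjusted p = 0.0332). The median of the members, 0.94, was 0.98 with DESeq2, 0.98 with its size factors in edgeR, 0.68 with library totals, 0.89 with no filter, 0.83 with the GC offset and 0.91 to 0.97 with 1 library left out; library totals also moved the median of all genes to -0.282. With library totals PSMC5 turned to -0.18 and PSMG2 to -0.08, while PSME2 (-0.29) and PSMF1 (-0.40) passed. PSME2, near 0 throughout, was 0.01 with DESeq2, 0.01 with its size factors, 0.11 with the GC offset and -0.06 to 0.01 with 1 library left out. PSMG2 passed as a rise in 6 settings, at 0.20 to 0.37, and PSMF1 passed as a fall without control replicate 3 (-0.18) and without curcumol replicate 1 (-0.20). Counted per transcript length, the share of the assembly chaperones was higher in curcumol by 0.142 percentage points, against lower by counts. Of 44 called members the log2 fold change moved by over 1.5 times for 10 with library totals and for 15 with the GC offset. The causes were not tested. PSMG4, with 26 to 32 counts per curcumol library, is the called member most limited by depth.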

Other observations

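The family has 32 pseudogene entries and 5 antisense entries with symbols built on those of its members, read here by count. Of the pseudogenes 3 had enough counts to be tested, PSMC1P1, PSMA6P1 and PSMD10P2, and all 3 rose, by 0.85, 1.24 and 3.94 on the log2 scale, as did their parent genes PSMC1, PSMA6 and PSMD10. PSMD10P2 rested on 16, 15 and 12 counts in curcumol and 2, 0 and 1 counts in control, against 1224 to 1277 counts of PSMD10 in curcumol and 698 to 798 in control, and whether these are reads of the parent gene was not tested. Of 4 tested antisense genes PSMA3-AS1 changed by 0.48, PSMD6-AS2 by 1.37 and PSMG3-AS1 by -1.39, each in the direction of its partner gene (1.38 for PSMA3, 1.47 for PSMD6 and -1.39 for PSMG3), and PSMB8-AS1 did not pass (-0.05, edgeR adjusted p = 0.92). The annotated exons of gene and antisense partner overlap by 618 bases for PSMB8, 352 for PSMD6, 60 for PSMG3 and 0 for PSMA3. With the use of strand not given, reads of a gene and its antisense partner cannot be told apart where their exons overlap. These genes were named after their values were seen.

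Other proteasome-binding zinc finger genes in the list of partners gave different calls. ZFAND5 had 734, 774 and 820 CPM in curcumol and 137, 138 and 141 CPM in control, a log2 fold change of 2.48, while ZFAND2B had 22.0, 16.3 and 18.1 CPM in curcumol and 15.6, 17 and 18 CPM in control and did not pass (0.16, edgeR adjusted p = 0.218). The thioredoxin-like 19S partner TXNL1 changed by 2.10 and the shuttle factor UBQLN1 by 1.19, whereas UBQLN4 changed by -0.62 and UBE3C, a ligase that extends chains at the proteasome, by -0.53 on the log2 scale.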
